A study of Homo sapiens with 24 samples.

Results

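The genes described here are 49 that copy DNA or that cells switch on to enter S phase, taken by symbol from a fixed list: origin licensing factors, helicase subunits, the sliding clamp and its loader, polymerases, nucleotide synthesis enzymes, G1/S cyclins and E2F factors. All 49 were found once in each of the 2 deposited tables, among 28008 gene rows in batch 1 and 60221 in batch 2. The members were listed by function and not by a measured value, but the list was drawn up with earlier results of these data known. All 49 passed the filter on low counts in both batches. RNA was sequenced from A375, an established human melanoma cell line, grown in medium with 10% serum and transfected with a plasmid carrying a CAG promoter and puromycin resistance, then kept for 48 h in 2 µg/mL puromycin. The plasmid carried no insert (empty vector), wild-type SLNCR (FL), or SLNCR without one of its triplex-forming regions (ΔTFR1, ΔTFR2, ΔTFR4 or ΔTFR5). SLNCR is a long noncoding RNA, and a triplex-forming region is a stretch thought to bind double-stranded DNA. Batch 1 holds empty vector, FL, ΔTFR1 and ΔTFR2, and batch 2 holds empty vector, FL, ΔTFR4 and ΔTFR5, with 3 libraries in each of the 8 groups. The series text calls these biological replicates. All groups share the cell line, the plasmid backbone and the drug, the model is 1 cell line, and the empty vector cells have SLNCR of their own. The study asks which genes these regions regulate.

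Before S phase, the origin recognition complex, CDC6 and CDT1 load rings of MCM2 to MCM7 onto DNA, and CDC45 and the GINS complex later turn each ring into the working helicase. Polymerase alpha with primase starts each strand, the clamp PCNA, loaded by replication factor C, holds the elongating polymerases on DNA, and FEN1 and LIG1 finish the fragments of the lagging strand. Most of these genes are transcribed at the G1 to S boundary, when E2F factors are freed from the retinoblastoma protein, and E2F1, E2F2 and cyclin E are themselves part of that switch. In a bulk sample, fewer cells in S phase and less RNA of these genes per cell cannot be told apart.

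Promoters are shown first because these genes are textbook E2F targets and because their levels moved together in batch 2. RefSeq promoter windows (build GRCh38.p14, 250 bases before to 50 after the start) were found for 42 of the 49 genes. The windows were searched on both strands for 4 E2F-type motifs, TTTCCCGC, TTTGGCGC, TTTCGCGC and TTTGCCGC. TTTCGCGC and TTTGGCGC can overlap on opposite strands, as they do at MCM6. A motif occurred in 22 of 42 windows (52.4%), against 908 of 27305 windows of all genes (3.33%). TTTCCCGC was in 11 member windows (26.2%, against 1.66% of all), TTTGGCGC in 9 (21.4%, against 0.659%), TTTCGCGC in 5 (11.9%, against 0.546%) and TTTGCCGC in 1 (2.38%, against 0.564%). A match is a description of the letters and not a measured binding site. The 12 genes with a match and the lowest adjusted p for ΔTFR4 against empty vector are given below as 30 bases, 5′ to 3′ on the gene's strand, with the motif in either orientation in capitals.
GINS1: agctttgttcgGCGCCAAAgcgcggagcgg
RFC3: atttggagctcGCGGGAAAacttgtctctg
CDC6: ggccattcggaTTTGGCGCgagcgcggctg
DTL: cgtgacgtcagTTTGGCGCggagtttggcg
CLSPN: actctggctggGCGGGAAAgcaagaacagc
PCNA: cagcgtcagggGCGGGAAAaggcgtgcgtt
POLE2: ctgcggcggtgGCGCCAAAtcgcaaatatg
E2F1: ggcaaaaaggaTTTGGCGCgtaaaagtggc
UHRF1: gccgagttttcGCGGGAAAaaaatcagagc
E2F2: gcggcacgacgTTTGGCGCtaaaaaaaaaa
MCM6: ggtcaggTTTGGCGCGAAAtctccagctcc
MCM3: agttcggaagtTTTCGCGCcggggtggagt

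These windows lie at chr20:25407667-25407696 on the plus strand (GINS1), chr13:33818083-33818112 plus (RFC3), chr17:40287875-40287904 plus (CDC6) and chr1:212035729-212035758 plus (DTL). CLSPN is at chr1:35769965-35769994 on the minus strand, PCNA at chr20:5126663-5126692 minus, POLE2 at chr14:49688201-49688230 minus and E2F1 at chr20:33686387-33686416 minus. UHRF1 is at chr19:4909476-4909505 on the plus strand, E2F2 at chr1:23531257-23531286 minus, MCM6 at chr2:135876511-135876540 minus and MCM3 at chr6:52284728-52284757 minus. The capitals begin at base 6 in GINS1 and at base 8 in CDC6, counting the base at the RefSeq start as 1. In the other 10 they begin before the start, by 4 bases in MCM3 up to 90 in MCM6. The 22 genes with a match had a median log2 change of -1.39 for ΔTFR4 against empty vector in batch 2, and the 20 without had -1.11. In ΔTFR5 against empty vector these medians were -0.80 and -0.78. At MCM6 and E2F2 the 100 bases before the RefSeq start lay wholly outside the GENCODE span of the gene, and they show the surroundings of the motif, GC-rich at MCM6 and followed by a run of A at E2F2. These stretches are chr2:135876444-135876543 and chr1:23531234-23531333, both on the minus strand.
MCM6: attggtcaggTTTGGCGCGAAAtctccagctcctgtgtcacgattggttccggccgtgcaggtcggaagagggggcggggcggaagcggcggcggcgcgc
E2F2: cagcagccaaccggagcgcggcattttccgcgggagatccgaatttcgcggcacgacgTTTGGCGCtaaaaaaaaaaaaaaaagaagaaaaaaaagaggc

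Levels are read counts scaled to library size (CPM, with TMM factors), with library totals of 8627449 to 10789211 in batch 1 and 24810226 to 33063445 in batch 2. SLNCR, listed as LINC00673 in batch 1, was at 18.9 to 20.8 CPM with empty vector and at 165 to 239.9 with FL, 191 to 205 with ΔTFR1 and 187 to 206 with ΔTFR2. The batch 2 table used here has no row of that name, and the row LINC00511 (ENSG00000227036), listed beside LINC00673 as a symbol for SLNCR, was read in its place. The labels do not say which row holds the construct's RNA, and in batch 1 LINC00511 stayed at 0.578 to 1.61 CPM in all libraries. In batch 2 it was at 30.1, 29.1 and 27.9 CPM with empty vector, 728, 658 and 334 in FL replicates 1, 2 and 3, 515, 498 and 444 with ΔTFR4, and 321, 376 and 192 with ΔTFR5. FL replicate 3 of batch 2 held the least of this RNA among the FL libraries, and it also stands apart for the replication genes. The comparisons with FL in this batch are therefore given with and without it. It was picked out in part by the levels of the replication genes, so the fits without it are a description and no independent test. Of the melanocyte markers, MITF (55.8 to 198 CPM) and SOX10 (10.9 to 77.9) were present, while PMEL, MLANA, TYR, DCT and S100B did not exceed 2.99 CPM and S100A1 did not exceed 5.38. KRT8 and KRT18 were present (59.1 to 523 CPM) but the other 5 epithelial markers, EPCAM, CDH1, KRT19, KRT5 and KRT14, did not exceed 5.85 CPM, although the labels call the cells epithelial. Of these 5, KRT19 stood at 188 and 166 counts in empty vector replicates 1 and 2 of batch 2 against 4 in replicate 3, and CDH1 at 128 and 142 against 18. The leukocyte genes PTPRC and CD3E stood at 93 and 10 counts in FL replicate 1 of batch 2, against at most 3 and 0 counts in the other 11 libraries of that batch. PECAM1, VWF and CDH5 did not exceed 1.53, and PDGFRA, LUM and DCN did not exceed 1.40, while CD68 was at 106 to 253. The summed level of the 7 epithelial markers was 585 to 642 CPM with empty vector in batch 2, 294 to 698.5 with FL, 420 to 533 with ΔTFR4 and 578 to 626 with ΔTFR5. That of the 8 melanocyte markers was 149 to 160 CPM, 128 to 246, 131 to 149 and 114 to 127 in the same order. The part of other cell types in the results that follow was not tested.

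The 49 genes together took 0.508 to 0.519% of all counts with empty vector in batch 1 and 0.440 to 0.460% in batch 2. Per kilobase of the longest transcript, PCNA was highest with empty vector in both batches, at 199 CPM per kb in batch 1 and 140 (139.6) in batch 2, followed by MCM4 at 143 and 139. MCM7, RRM2 and TYMS took the next places in batch 2, at 118, 89.7 and 70.4 CPM per kb. The lowest were E2F2 at 3.66 CPM per kb in batch 1 and CCNE2 at 2.92 in batch 2. Within the MCM ring, whose 6 subunits are used in equal number, the empty vector levels in batch 2 ran from 26.7 CPM per kb for MCM6 to 139 for MCM4. The 4 GINS subunits ran from 5.45 for GINS4 to 20.8 for GINS1. The longest annotated transcript need not be the one expressed, and the part of this length in the differences between genes was not tested.

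**Figure D1:**
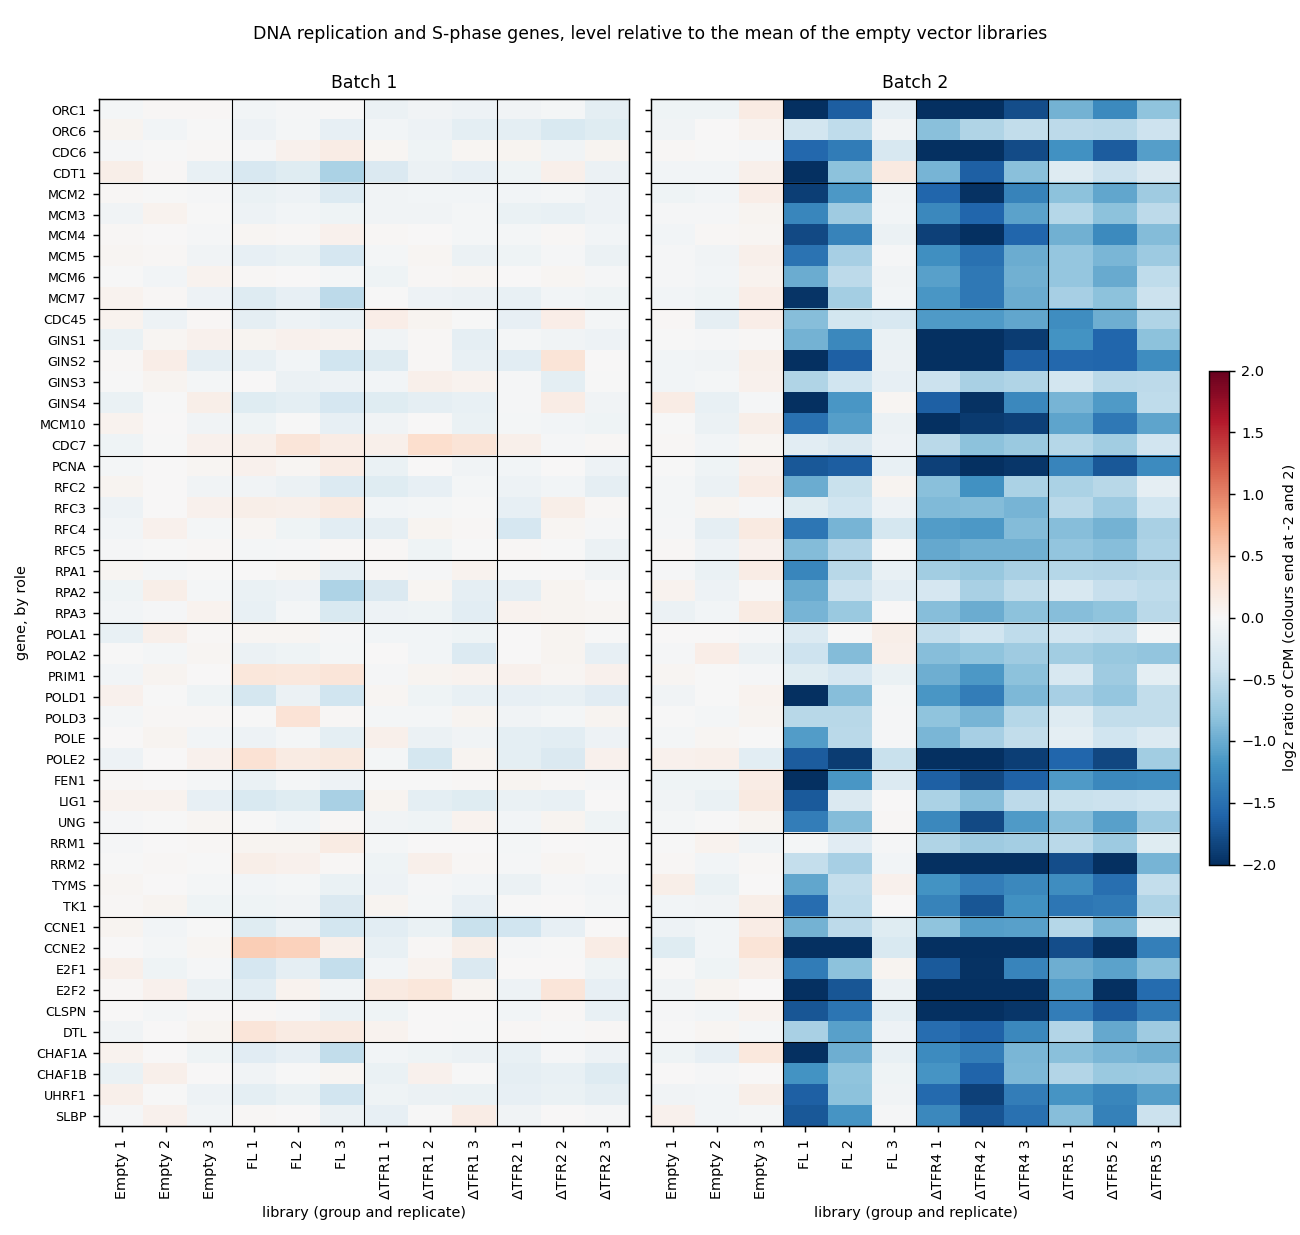
Level of each of the 49 genes (rows, by role) in each of the 24 libraries (columns), as the log2 ratio of CPM to the mean of the 3 empty vector libraries of the same batch, with the colour scale ending at -2 and 2. Batch 1 is pale, while in batch 2 the ΔTFR4 and ΔTFR5 libraries and FL replicates 1 and 2 are mostly blue and FL replicate 3 is close to the empty vector libraries.

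In batch 2, nearly the whole set was lower with SLNCR lacking region 4 than with empty vector. The median member stood at 43.5, 35.5 and 48.6% of the empty vector mean in ΔTFR4 replicates 1, 2 and 3. With FL, which keeps region 4, it stood at 38.2, 57.1 and 95.0%, and the part of the deletion itself was not tested by this comparison. Of the 49 genes, 46 were lower with ΔTFR4 than with empty vector and none was higher, at an adjusted p under 0.05, where 11.4% of all 18763 tested genes were called lower. The median log2 change was -1.20, against 0.02 over all genes, and it ran from -3.07 (CCNE2) to -0.46 (POLA1). In all 49 genes each ΔTFR4 library lay below each empty vector library, which held for 27.5% of all genes. The genes not called were CDT1 (-1.09 ± 0.43, SE, adjusted p = 0.0852), RPA2 (-0.49 ± 0.18, 0.0599) and LIG1 (-0.66 ± 0.30, 0.119). Without any one of the 6 libraries, 37 to 41 genes were called, and 35 of the 46 calls held in every alternative tried. The shares of all genes called in these other fits are not given here.

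RRM2 (chromosome 2, 10120698 to 10131419, GRCh38, GENCODE 29), the small subunit of ribonucleotide reductase, which makes the deoxynucleotides for DNA synthesis, had the lowest adjusted p. It was at 335, 317 and 336 CPM with empty vector and at 82.5, 63.3 and 74.9 with ΔTFR4 (log2 change -2.16 ± 0.25, adjusted p = 0.000346). The groups are far apart, with a fitted ratio of 0.224 to empty vector. GINS1 (chromosome 20, 25407727 to 25452628), a subunit of the helicase complex, went from 67.6, 66.7 and 68.8 CPM to 16.8, 14.1 and 18.1 (-2.05 ± 0.27, 0.000678). RFC3, a clamp loader subunit, went from 54.8, 58.5 and 55.1 CPM to 30.5, 30.9 and 29.4 (-0.89 ± 0.12, 0.000788). The RFC3 fall was smaller than that of RRM2 but its replicates were close, with an SD of 0.731 CPM over the ΔTFR4 libraries.

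The licensing factor CDC6 (chromosome 17, 40287633 to 40304657) was at 102, 99.7 and 99.1 CPM with empty vector and at 22.2, 17.8 and 29.1 with ΔTFR4 (-2.12 ± 0.30, adjusted p = 0.00089). MCM10, which acts when origins fire, fell from 61.5, 56.6 and 66.6 CPM to 15.3, 16.4 and 17.0 (-1.92 ± 0.27, 0.000898). CLSPN, the adaptor that carries the replication checkpoint signal to the kinase CHEK1, fell from 100.4, 97.8 and 107 CPM to 19.3, 16.3 and 26.3 (-2.30 ± 0.32, 0.000898). DTL, the receptor of the ubiquitin ligase that destroys CDT1 in S phase, fell from 103, 106 and 99.7 CPM to 35.6, 33.5 and 42.0 (-1.47 ± 0.21, 0.00089). In each of these 4 genes all ΔTFR4 libraries lay far below all empty vector libraries.

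CCNE2, one of the cyclins E that drive CDK2 at the start of S phase, showed the largest change. Its level was low, at 8.25, 9.34 and 11.6 CPM with empty vector, and it was at 1.08, 0.72 and 1.67 with ΔTFR4 (-3.07 ± 0.63, adjusted p = 0.00496). The other cyclin E, CCNE1, fell by less, from 17.9 ± 1.73 CPM (SD, n = 3) to 9.00 ± 1.11 (-0.99 ± 0.21, 0.00527). E2F2 fell from 19.9 ± 0.802 CPM to 3.37 ± 0.855 (-2.56 ± 0.46, 0.00262), and E2F1 from 41.5 ± 2.67 to 13.4 ± 3.10 (-1.63 ± 0.29, 0.00239). Both are activating members of the E2F family, and all 4 genes of this group were called lower.

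By role, genes of every group fixed here were called lower with ΔTFR4. All 6 MCM ring genes were called, with log2 changes from -1.86 for MCM4 (580 ± 18.5 to 159 ± 33.8 CPM, adjusted p = 0.00244) to -1.14 for MCM6. All 7 genes of helicase activation were called, from -2.07 for GINS2 (20.5 ± 1.34 to 4.88 ± 1.62 CPM, 0.00386) to -0.56 for GINS3. GINS1 and GINS2 thus fell to fitted ratios of 0.241 and 0.239 and GINS3 to 0.679, although all are subunits of 1 complex, a difference that was not itself tested. CDC7, the kinase that acts on the loaded MCM ring, fell by 0.69 on the log2 scale (0.00421).

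The clamp gene PCNA fell by 2.00 ± 0.33 on the log2 scale (190 ± 11.1 to 47.6 ± 5.42 CPM, adjusted p = 0.00181), and the 4 loader subunits RFC2 to RFC5 fell by 0.87 to 1.04. All 7 polymerase and primase genes were called. POLE2, the second subunit of the leading-strand polymerase, fell by 2.31 ± 0.41 (10.3 ± 1.25 to 2.08 ± 0.714 CPM, 0.00231), while its catalytic subunit POLE fell by 0.68 ± 0.21 (94.9 ± 2.67 to 59.2 ± 8.35 CPM, 0.0322). POLA1, the catalytic subunit of polymerase alpha, had the smallest called change (-0.46 ± 0.13, 0.0211). PRIM1, the catalytic primase subunit, went from 50.9 ± 1.06 CPM to 25.9 ± 2.98 (-0.97 ± 0.14, 0.00105).

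Of the single-strand binding genes, RPA1 (-0.70 ± 0.21, adjusted p = 0.0288) and RPA3 (-0.89 ± 0.21, 0.00962) were called. FEN1, which cuts flaps off lagging-strand fragments, fell by 1.68 ± 0.31 (0.00277), and UNG, which removes uracil from DNA, by 1.38 ± 0.28 (0.00474). The 4 nucleotide supply genes were all called. After RRM2 came the salvage enzyme TK1 (-1.40 ± 0.32, 0.00785), thymidylate synthase TYMS (-1.29 ± 0.27, 0.00572) and RRM1, the large subunit of ribonucleotide reductase (-0.67 ± 0.13, 0.00329). The 2 subunits of ribonucleotide reductase thus differed in the size of their fall, RRM1 going to 0.63 and RRM2 to 0.224 of the empty vector level, a difference that was not itself tested.

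The 4 genes that act on new chromatin were all called lower. UHRF1, which carries DNA methylation over to the new strand, fell by 1.59 ± 0.28 (188 ± 14.4 to 62.5 ± 10.5 CPM, adjusted p = 0.00241). SLBP, which binds histone mRNA, fell by 1.49 ± 0.34 (0.00836), and the chromatin assembly subunits CHAF1B and CHAF1A by 1.20 ± 0.24 (0.00455) and 1.17 ± 0.34 (0.0253). Among the licensing genes, ORC1 fell by 2.11 ± 0.41 (59.1 ± 5.99 to 13.7 ± 4.11 CPM, 0.00358) and ORC6 by only 0.64 ± 0.14 (0.00672).

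**Figure D2:**
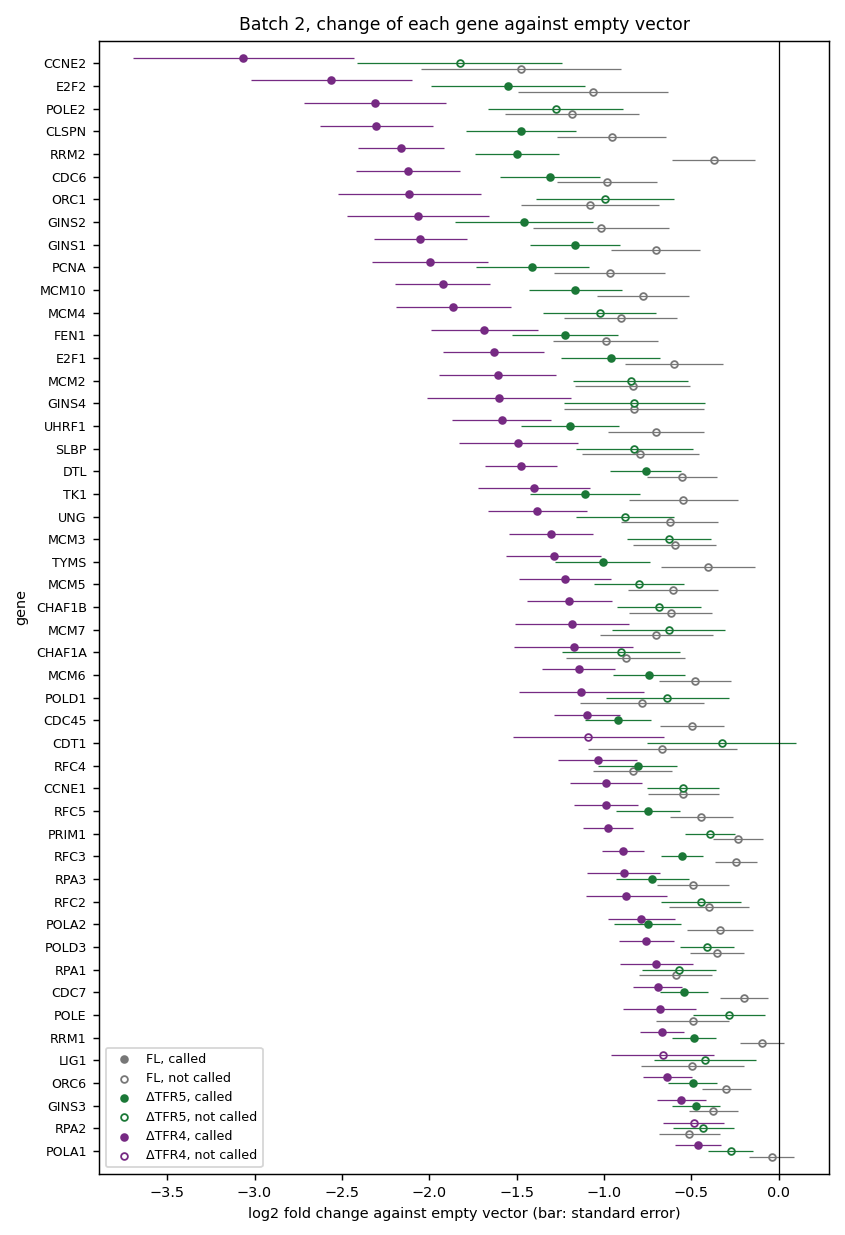
Log2 fold change of each of the 49 genes against empty vector in batch 2, with bars of 1 standard error, for ΔTFR4 (purple), ΔTFR5 (green) and FL (grey), each from 3 libraries per group, and filled points for adjusted p under 0.05. All points lie left of 0, the purple ones from -3.07 (CCNE2) to -0.46 (POLA1), and no grey point is filled.

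With SLNCR lacking region 5, about as many of the genes were called as not. With ΔTFR5, 25 of the 49 were called lower than empty vector and none higher, against 4.68% of all genes called lower. The median log2 change was -0.80 (0.02 over all genes), from -1.83 (CCNE2) to -0.28 (POLA1). In all 49 genes each ΔTFR5 library lay below each empty vector library, which held for 21.8% of all genes. The number of calls fell when any 1 library was left out, which also leaves fewer replicates, a part that was not tested. It was 3, 4 and 1 without empty vector replicates 1, 2 and 3, and 1, 1 and 16 without ΔTFR5 replicates 1, 2 and 3. It was 11 with no filter on low counts and 49 when only these 2 groups were fitted, and the median stayed between -0.88 and -0.70 in all alternatives. The shares of all genes called in these other fits are not given here, so their counts are not read as a result about the set.

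RRM2 was the member called in every alternative. Against 335, 317 and 336 CPM with empty vector it was at 96.4, 81.2 and 172 with ΔTFR5 (-1.50 ± 0.24, adjusted p = 0.00347), and the third ΔTFR5 library was the highest of its group but still below all controls. CDC45, a helicase subunit, went from 20.2, 17.5 and 21.8 CPM to 8.35, 10.0 and 13.0 (-0.92 ± 0.19, 0.0107). CLSPN was at 39.2, 32.3 and 38.3 CPM (-1.48 ± 0.31, 0.0126), RFC3 at 38.5, 33.8 and 42.5 (-0.55 ± 0.12, 0.014), CDC6 at 43.3, 31.6 and 46.5 (-1.31 ± 0.29, 0.0147) and GINS1 at 29.6, 22.4 and 38.4 (-1.17 ± 0.26, 0.0155). For CLSPN, RFC3, CDC6 and GINS1 all ΔTFR5 libraries lie between the ΔTFR4 and the empty vector libraries, while for RRM2 and CDC45 the 2 deletions overlap. CCNE2 again had the largest change but was not called, at 2.86, 1.60 and 3.77 CPM (-1.83 ± 0.59, 0.0655).

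Across roles, 1 of the 6 MCM ring genes was called with ΔTFR5, MCM6 (-0.74 ± 0.21, adjusted p = 0.0392). All 6 changed by -1.02 to -0.63, so the lack of a call is not read as a lack of change. The spread of each gene was estimated over all groups of the batch, FL included, where MCM4 was at 309 ± 197 CPM. The part of the FL spread in which genes were called was not tested. MCM4 was at 285 ± 39.7 CPM against 580 ± 18.5 (-1.02 ± 0.32, 0.0621). Of the 7 genes of helicase activation 6 were called, with GINS2 at -1.46 ± 0.40 (0.0356), and all but RFC2 of the clamp and loader genes, with PCNA at -1.41 ± 0.32 (0.0174). All 4 nucleotide supply genes were called, and 1 of 7 polymerase genes, POLA2 (-0.75 ± 0.19, 0.0277). E2F1 (-0.96 ± 0.28, 0.0472) and E2F2 (-1.55 ± 0.44, 0.0422) were called, CCNE1 was not (-0.55 ± 0.20, 0.106). CLSPN and DTL (-0.76 ± 0.20, 0.0325) were called, and UHRF1 was the chromatin gene called (-1.19 ± 0.28, 0.0184).

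**Figure D3:**
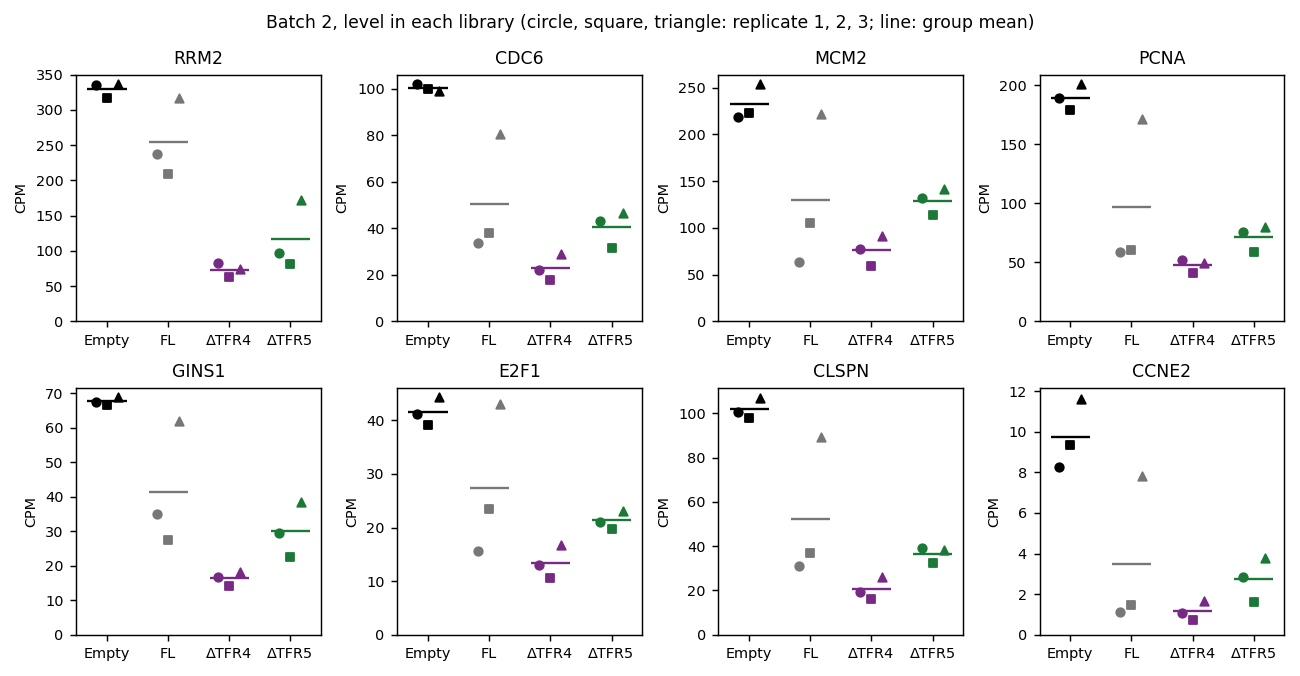
CPM of 8 of the genes in every library of batch 2, with circle, square and triangle for replicates 1, 2 and 3, a line at each group's mean, and axes from 0. MCM2, PCNA and E2F1 were added to the plot after their values were seen. The third FL library lies closer to the empty vector libraries than the other FL libraries do for every gene shown, for example RRM2 at 317 CPM and CCNE2 at 7.84.

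The deletions were set against each other in batch 2, since both have the same controls. No gene of the 49 was called between ΔTFR5 and ΔTFR4 by edgeR, where 0.453% of all genes were. DESeq2 called 1, and 16 had an unadjusted p under 0.05, as did 9.7% of all genes. All 49 log2 differences were above 0, with a median of 0.46 (-0.003 over all genes), and in 30 genes each ΔTFR5 library lay above each ΔTFR4 library, against 13.1% of all genes. A fit of these 2 groups alone called 19. For this count and that of DESeq2 the share of all genes called is not given here. PRIM1 had the lowest p, at 40.5, 31.2 and 44.5 CPM with ΔTFR5 against 26.0, 22.9 and 28.8 with ΔTFR4 (0.58 ± 0.14, unadjusted p = 0.00128, adjusted p = 0.148 by edgeR). DTL was next, at 68.6, 50.5 and 63.0 CPM against 35.6, 33.5 and 42.0 (0.71 ± 0.20, unadjusted p = 0.00389, adjusted p = 0.246 by edgeR). CCNE2 differed most (1.24 ± 0.63, adjusted p = 0.552), with overlapping groups. The row LINC00511 was higher with ΔTFR4 (444 to 515 CPM) than with ΔTFR5 (192 to 376), and the part of this level in the difference was not tested.

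Full-length SLNCR in batch 2 gave no call, and its libraries disagreed. Against empty vector, edgeR called 0 of the 49 genes, where 0.128% of all genes were called lower. DESeq2 called 9 members, and 34 had an unadjusted p under 0.05, as did 26.3% of all genes. The share of all genes called by DESeq2 is not given here. The median log2 change was -0.60, against 0.02 over all genes, all 49 changes were below 0, and in 24 genes each FL library lay below each empty vector library, against 11.2% of all genes. The median member stood at 38.2% of the empty vector mean in FL replicate 1, 57.1% in replicate 2 and 95.0% in replicate 3. In replicates 1 and 2, 48 of the 49 genes lay below the lowest empty vector library, and in replicate 3, 24 did. The share of all genes below that library was not computed for single libraries, so these counts have no background beside them. Without FL replicate 3, 43 genes were called lower, against 13.8% of all genes, led by PCNA (-1.67 ± 0.15, adjusted p = 2.21e-05) and CLSPN (-1.59 ± 0.18, 8.41e-05). That library was left out in part because of the levels of these same genes, so these calls are a description and no independent test. Leaving out any other library of the comparison gave 0 calls. The median change was -0.997 without FL replicate 3 and -0.34 without FL replicate 1, the library with the leukocyte transcripts, whose part was not tested.

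RFC4, a clamp loader subunit, had the lowest p with all libraries, at 24.0, 21.5 and 27.5 CPM with empty vector and 8.98, 12.8 and 19.1 with FL (-0.84 ± 0.22, adjusted p = 0.0676). CDC6 was next, at 33.6, 37.9 and 80.6 CPM against 102, 99.7 and 99.1 (-0.98 ± 0.28, 0.0778). CCNE2 had the largest change, at 1.14, 1.48 and 7.84 CPM against 8.25, 9.34 and 11.6 (-1.48 ± 0.57, 0.135). In these 3 genes all FL libraries lay below all empty vector libraries, and the third FL library was the highest of its group. FL replicate 3 had the lowest LINC00511 level of the group, and FL replicate 1 stood apart in the trend of gene levels with GC content. Spearman's rho over all genes between GC content and the deviation from the batch mean was -0.57 in FL replicate 1 and ranged from -0.14 to 0.30 in the other 11 libraries of the batch. The part of either in these results was not tested.

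The deletions were also compared with FL, that is, with the RNA that keeps all regions. These comparisons share the FL libraries with the comparison of FL with empty vector, so the spread of FL enters all of them. With ΔTFR4, 9 of the 49 genes were called lower than FL and none higher, against 2.47% of all genes called lower, and the median log2 change was -0.67 (-0.02 over all genes). RRM2 was at 237, 209 and 317 CPM with FL and 82.5, 63.3 and 74.9 with ΔTFR4 (-1.79 ± 0.24, adjusted p = 0.00317), and it was the member of the 9 called in every alternative, with changes from -1.91 to -1.60. RFC3 was at 47.5, 42.5 and 52.2 CPM against 30.5, 30.9 and 29.4 (-0.65 ± 0.12, 0.013), and PRIM1 at 42.9, 40.3 and 46.5 against 26.0, 22.9 and 28.8 (-0.74 ± 0.14, 0.015). In these 3 genes no ΔTFR4 library reaches the lowest FL library.

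GINS1 was at 35.0, 27.6 and 61.9 CPM with FL and 16.8, 14.1 and 18.1 with ΔTFR4 (-1.35 ± 0.26, adjusted p = 0.0158). RRM1 was at 151, 133 and 154 CPM against 102, 95.1 and 96.9 (-0.57 ± 0.13, 0.0266), and DTL at 65.5, 48.6 and 95.7 against 35.6, 33.5 and 42.0 (-0.92 ± 0.20, 0.0276). The other 3 called were CDC6, MCM10 and CLSPN, by -1.14, -1.14 and -1.35. The count moved when libraries were left out, which also leaves fewer replicates, a part that was not tested. It was 34 without FL replicate 1 and 1, 1 and 2 without ΔTFR4 replicates 1, 2 and 3. It was 1 in a fit of these 2 groups alone, 15 with the GC trend of each library removed and 20 by DESeq2. Without FL replicate 3 it was 8, CDC6 being lost (-0.64, adjusted p = 0.0507), and the median change was -0.27 in place of -0.67. The shares of all genes called in these other fits are not given here. RPA2 was the gene with a change above 0 (0.03 ± 0.18).

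With ΔTFR5 against FL, RRM2 was the called member, lower at 96.4, 81.2 and 172 CPM against 237, 209 and 317 (-1.12 ± 0.24, adjusted p = 0.0407), where 0.554% of all genes were called lower. The median log2 change was -0.20 (-0.02 over all genes), and 10 of the 49 changes were above 0. Without FL replicate 3 the median was on the other side of 0, at 0.21, while RRM2 was still called lower. The RRM2 call held in 7 of 12 alternatives. Those in which it was lost included a fit of the 2 groups alone, and fits with FL replicate 2, ΔTFR5 replicate 1 or ΔTFR5 replicate 2 left out, where no member was called. Without FL replicate 3 the members called were 3 and without ΔTFR5 replicate 3 they were 2. RRM1 did not pass (-0.39 ± 0.13, adjusted p = 0.112).

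Other genes of the same pathways give the setting in batch 2, where 11.4% of all genes were called lower with ΔTFR4 than with empty vector and 4.68% with ΔTFR5. Of 34 other replication fork genes, 21 were lower with ΔTFR4 than with empty vector and none higher, with a median log2 change of -0.71, and 9 were lower with ΔTFR5. Of 32 other E2F-linked S-phase genes, 28 were lower with ΔTFR4 (median -1.15) and 16 with ΔTFR5, none higher. Examples are EXO1, an exonuclease of mismatch repair (-1.36 ± 0.14, adjusted p = 0.000164 with ΔTFR4), ATAD2 (-1.18 ± 0.15, 0.000678), and the fork genes WDHD1 (-1.04 ± 0.13, 0.000623) and MCM8 (-1.11 ± 0.15, 0.000795). Of 26 G2 and mitosis genes, 23 were lower with ΔTFR4 and 12 with ΔTFR5, none higher, for example the spindle checkpoint kinase BUB1B (-1.12 ± 0.16, 0.00089 with ΔTFR4) and the spindle protein TPX2 (-0.88 ± 0.14, 0.00133). In nucleotide metabolism, 11 of 22 genes were lower and 2 higher with ΔTFR4, and 4 were lower and 1 higher with ΔTFR5. The share of all genes called higher was 12.5% with ΔTFR4 and 5.48% with ΔTFR5, so the few higher calls are not read as a result about this list.

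The G1 control and RB pathway list went both ways, with 4 of 20 tested genes lower and 5 higher with ΔTFR4, where 11.4% and 12.5% of all genes were. With ΔTFR5, 2 of 20 were called lower and 2 higher, where 4.68% and 5.48% of all genes were. MYC, a growth-driving transcription factor, was at 77.3, 73.8 and 64.1 CPM with empty vector, 333, 348 and 80.6 in FL replicates 1, 2 and 3, 288, 276 and 249 with ΔTFR4, and 115, 162 and 99.8 with ΔTFR5. It was higher with FL (1.82 ± 0.39, adjusted p = 0.0496, and 2.24 ± 0.17, 1.2e-05 without FL replicate 3) and with ΔTFR4 (1.92 ± 0.39, 0.00502) than with empty vector. The FL library that was low in MYC was the one in which the replication genes stood near the empty vector level. It was also the FL library with the lowest level of LINC00511. This is 1 library, and a link between these levels was not tested. Called lower with ΔTFR4 than with FL were 7 of the 34 fork genes, 19 of the 32 E2F-linked genes, 4 of the 22 nucleotide genes and 8 of the 26 mitotic genes, none higher in these 4 lists. With ΔTFR5, 0, 2, 1 and 0 of them were called lower than with FL. Among all genes, 2.47% were called lower than with FL for ΔTFR4 and 0.554% for ΔTFR5.

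**Figure D4:**
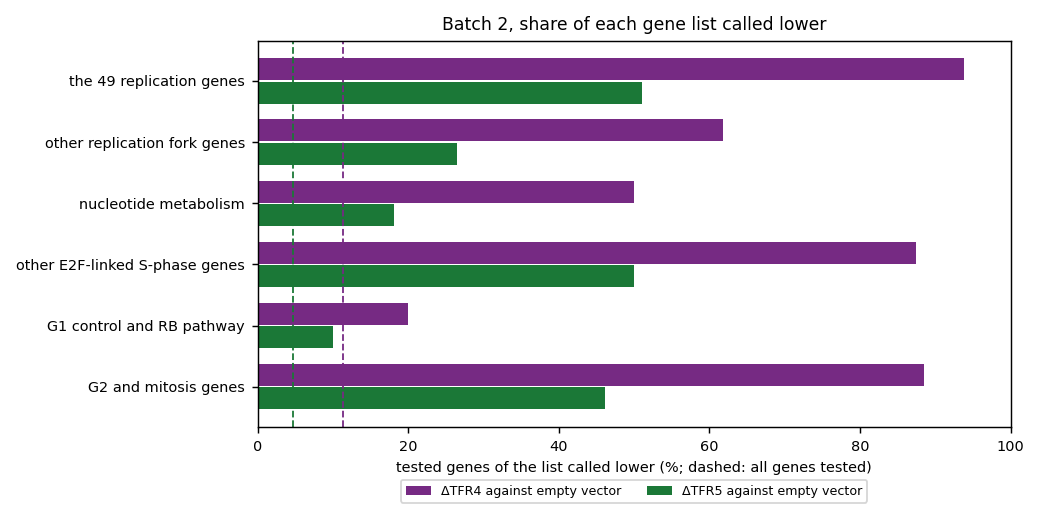
Share of the tested genes of each list called lower than empty vector in batch 2, in percent, for ΔTFR4 (purple) and ΔTFR5 (green), 3 libraries per group, with dashed lines at the share of all genes called lower, 11.4% and 4.68%. The bars of the 49 replication genes stand for 46 and 25 genes, and those of G1 control for 4 and 2 of 20.

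In batch 1 the same genes moved little. Full-length SLNCR against empty vector gave 9 genes called lower and 3 called higher of 49, against 11.3% and 11.4% of all 14310 tested genes, and the median log2 change was -0.07 (-0.02 over all genes). The changes ran from -0.38 to 0.37. In 16 genes each FL library lay below each empty vector library and in 10 above, against 18.7% and 17.9% of all genes. The lowest fitted ratio of FL to empty vector was 0.767 (LIG1) and the highest 1.29 (CCNE2).

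The licensing factor CDT1 was at 75.2, 70.5 and 62.7 CPM with empty vector and 55.9, 59.0 and 44.8 with FL (-0.38 ± 0.09, adjusted p = 0.00344). POLD1, the catalytic subunit of the lagging-strand polymerase, was at 102, 95.4 and 90.5 CPM against 75.7, 88.7 and 72.8 (-0.28 ± 0.07, 0.00409), and CHAF1A at 82.6, 79.3 and 74.1 against 67.3, 70.0 and 56.1 (-0.28 ± 0.07, 0.00435). In all 3 genes the FL libraries lie below the empty vector libraries, with FL replicate 3 the lowest. LIG1, the DNA ligase of lagging-strand fragments, was at 47.5, 47.8 and 40.5 CPM against 36.8, 38.1 and 28.9 (-0.38 ± 0.09, 0.00492). MCM7 was at 374, 364 and 332 CPM against 298, 319 and 247 (-0.31 ± 0.07, 0.00568), and UHRF1 at 193, 177 and 167 against 157, 164 and 137 (-0.23 ± 0.06, 0.00575). The other genes called lower were E2F1 (-0.32 ± 0.08, 0.00734), MCM2 (-0.17 ± 0.05, 0.011) and MCM5 (-0.21 ± 0.06, 0.0126). Those called higher were CCNE2 (0.37 ± 0.10, 0.00692), DTL (0.19 ± 0.05, 0.00993) and PRIM1 (0.22 ± 0.065, 0.0144).

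These calls moved with GC content. The 9 genes called lower had a median transcript GC of 57.6% (54.6 to 65.0%), the 3 called higher 40.7% (36.9 to 42.1%), and the 37 others 48.0%. Across the 49 genes, which are not independent replicates and share the libraries, Spearman's rho between log2 change and GC was -0.80 as a description. Over all genes, rho between GC and the deviation from the batch mean was -0.61 to -0.38 in the FL libraries, 0.12 to 0.53 with empty vector, 0.03 to 0.34 with ΔTFR1 and 0.05 to 0.28 with ΔTFR2. With each library's GC trend removed, edgeR called none of the 49 genes in this comparison, and 197 genes in place of 3247 were called in all. MCM2 then changed by 0.01 and POLD1 by 0.01, on the other side of 0. Without empty vector replicate 1, 4 members were called.

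**Figure D5:**
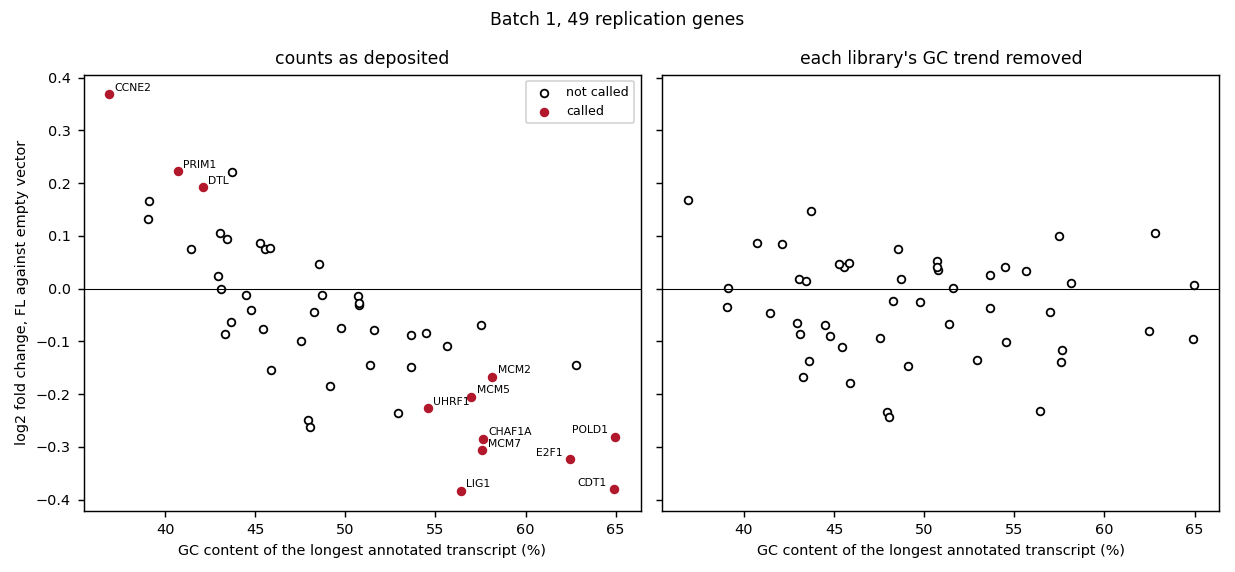
Log2 fold change of FL against empty vector in batch 1 for each of the 49 genes (points) against the GC content of its longest annotated transcript in percent, from counts as deposited (left) and with each library's GC trend removed (right), with filled points for adjusted p under 0.05, 3 libraries per group. The falling line of points on the left, from CCNE2 at 0.37 to CDT1 at -0.38, is absent on the right, where no point is filled.

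Against FL, which these comparisons share with the one above, the batch 1 deletions gave few calls. ΔTFR1 against FL gave 2 genes higher and 3 lower, against 4.4% and 5.66% of all genes, with a median log2 change of 0.02 (0.02 over all genes). MCM7 was higher, at 356, 331 and 329.9 CPM against 298, 319 and 247 with FL (0.23 ± 0.07, adjusted p = 0.0442), as was POLD1, at 98.5, 90.7 and 87.2 against 75.7, 88.7 and 72.8 (0.22 ± 0.07, 0.039). PCNA was lower, at 246, 272 and 259 CPM against 287, 277 and 299 (-0.15 ± 0.05, 0.0392), as were DTL, at 110.3, 105 and 104 against 124, 117 and 118 (-0.17 ± 0.05, 0.0416), and CCNE2, at 22.7, 25.7 and 27.4 against 35.4, 34.9 and 27.2 (-0.37 ± 0.10, 0.0195). The groups overlap for POLD1 and CCNE2. No member was called with the GC trend removed, in a fit of the 2 groups alone, or without FL replicate 1 or ΔTFR1 replicate 1. Leaving out FL replicate 2 gave 11 and FL replicate 3 gave 1, and leaving out ΔTFR1 replicate 2 or 3 gave 2 each. With the replicate number as a block it was 10.

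ΔTFR2 against FL gave 3 genes higher and 2 lower, against 4.86% and 5.15% of all genes, with a median of -0.01 (0.01 over all genes). CDT1 was at 65.8, 74.3 and 63.9 CPM against 55.9, 59.0 and 44.8 with FL (0.35 ± 0.09, adjusted p = 0.0171), E2F1 at 48.0, 48.0 and 44.7 against 37.8, 41.8 and 34.2 (0.30 ± 0.09, 0.0256), and LIG1 at 41.4, 40.9 and 45.4 against 36.8, 38.1 and 28.9 (0.29 ± 0.09, 0.0469). CCNE2 was lower at 24.9, 25.2 and 28.0 CPM (-0.33 ± 0.10, 0.0316) and DTL at 106, 104 and 107 (-0.18 ± 0.05, 0.0311). The ΔTFR2 libraries of CCNE2 overlap with FL, those of the other 4 genes do not. With the GC trend removed no member was called, and a fit of the 2 groups alone called 2. It was 1, 9 and 1 when FL replicates 1, 2 and 3 were left out, 1, 0 and 1 without ΔTFR2 replicates 1, 2 and 3, and 9 with the replicate block.

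Neither batch 1 deletion gave a call against empty vector in these genes. For ΔTFR1 against empty vector, edgeR called 0 of 49 (0.00699% of all genes), DESeq2 called 0, and 3 had an unadjusted p under 0.05, near the 4.12% of all genes. CDC7 had the lowest p, at 23.4, 27.6 and 26.1 CPM with ΔTFR1 against 20.5, 21.7 and 23.3 (0.24 ± 0.09, adjusted p = 0.992), followed by CCNE1 at 20.2, 21.3 and 17.2 against 24.3, 22.5 and 23.1 (-0.25 ± 0.11, 0.992). For ΔTFR2, edgeR called 0 (0.014% of all genes), as did DESeq2, and 5 had an unadjusted p under 0.05 (4.17% of all genes). ORC6 was at 32.0, 29.6 and 30.8 CPM with ΔTFR2 against 37.9, 35.2 and 36.5 (-0.25 ± 0.08, 0.994), and POLE at 97.4, 96.1 and 103 against 112, 115 and 107 (-0.17 ± 0.06, 0.994). The changes of all 49 genes lay between -0.25 and 0.24 with ΔTFR1 and between -0.25 and 0.07 with ΔTFR2. Between ΔTFR2 and ΔTFR1, edgeR called 0 (0% of all genes), DESeq2 called 0, and 4 had an unadjusted p under 0.05 (3.85% of all genes). POLE, at -0.14 ± 0.06, and GINS4, at 25.3, 28.7 and 24.6 CPM against 21.8, 22.7 and 23.1 (0.22 ± 0.10), had the lowest p, each with an adjusted p of 1.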

How the data were processed

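The authors deposited raw counts per gene symbol for batch 1, and for batch 2 estimated counts per gene, which the table's own name credits to salmon and of which 83.7% were whole. Upstream tools, per the submitters' processing notes, were STAR 2.7.3a, Subread 1.6.2 (featureCounts), DESeq2 1.24.0, FastQC 0.11.5 and cutadapt 2.5. Not given in the sources used here are salmon's version, the annotation and whether counting used strand, so reads of overlapping antisense genes (ENOSF1 for TYMS) and of processed pseudogenes (PCNA, RRM2) may be shared. Estimated counts were rounded. Each batch was fitted apart, since the tables were made differently, with edgeR 4.0.16 in R 4.3.3: filterByExpr (minimum count 10, total 15), TMM, and the robust quasi-likelihood test over all 12 libraries. This tested 14310 and 18763 genes, with common biological variation (BCV) of 0.0503 and 0.212. Adjusted p-values are by Benjamini-Hochberg over all tested genes, with calls under 0.05. Values with ± after a log2 change are standard errors, and after CPM standard deviations, with n = 3.

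Alternatives were DESeq2 1.42.0, its size factors in edgeR, no filter, a replicate block, fits of the compared groups alone, removal of each library's trend with GC content (spline with 5 degrees of freedom, GENCODE 29 transcripts, all 49 genes with a value), and each library left out. Replicates were compared first: chi-square per gene was 1.48 to 6.65 in batch 1 and 7.64 to 192 in batch 2, so no pair was within counting noise. Counting intervals are not given, since replicate spread exceeds counting error. In each comparison, values in every library are printed for up to 6 called members of lowest adjusted p (7 where MCM10 and CLSPN tied) and for the largest change, or for the 2 lowest p where none was called; of other genes, up to 3 of lowest adjusted p per list in a main comparison, and SLNCR. Members, lists and rules were chosen with earlier results of these data known. The fit was tested on simulated data.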

Additional observations from a re-analysis of the deposited data

Results flagged for a closer look

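For 8 genes, the FL libraries lay on opposite sides of the empty vector libraries in the 2 batches: all FL libraries lay above all empty vector libraries in batch 1 and below them in batch 2. Of all tested genes, 17.9% lay wholly above in batch 1 and 11.2% wholly below in batch 2. The share of all genes with both was not computed, so the 8 are not read as particular to this set. Against empty vector, the log2 changes of FL (batch 1 first, then batch 2) were 0.05 and -0.91 for MCM4, 0.17 and -0.20 for CDC7, 0.09 and -0.97 for PCNA, and 0.13 and -0.24 for RFC3. They were 0.22 and -0.23 for PRIM1, 0.22 and -1.18 for POLE2, 0.37 and -1.48 for CCNE2, and 0.19 and -0.56 for DTL. The difference between the batches was not tested, and the tables were made in different ways. Of these genes PRIM1, CCNE2 and DTL were called in batch 1 by edgeR, where no member was called once the GC trend was removed. RFC3 then changed by -0.03 in batch 1 and CDC7 by 0.0014, so the opposite direction was lost for RFC3. In batch 2 edgeR called none of the 8 with all libraries, and without FL replicate 3 it called MCM4 (-1.57), PCNA (-1.67), POLE2 (-1.78), CCNE2 (-2.91) and DTL (-0.86). That library was picked out in part by the levels of the replication genes, so the latter calls are a description.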

How the results depend on the processing

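Counts of members called stayed within 1.5 times the reported count in 96 repeats and moved further in 48. A repeat with 0 calls where the reported count was 0 was included in the 96, as for ΔTFR1 and ΔTFR2 against empty vector. The 96 is therefore no measure of how stable the counts are where members were called. The shares of all genes called in the repeats are not given here, except where stated above. The replicate block gave 10 for ΔTFR1 against FL, 9 for ΔTFR2 against FL and 5 for FL against empty vector in batch 2, and stayed within 1.5 times elsewhere. Same-numbered libraries did not deviate together (correlations -0.13 to 0.18 in batch 1 and -0.19 to 0.29 in batch 2), so the numbers were not taken to pair the samples. Removing the GC trend gave 0 for FL against empty vector in batch 1, 0 for ΔTFR1 and 0 for ΔTFR2 against FL, and 15 for ΔTFR4 against FL. MCM2 (0.010) and POLD1 (0.007) in FL against empty vector of batch 1, and POLD1 in ΔTFR1 against FL (-0.023), then changed sign. Fits of only the compared groups against FL gave 0 (ΔTFR1), 2 (ΔTFR2), 1 (ΔTFR4) and 0 (ΔTFR5), 49 for ΔTFR5 against empty vector and 19 for ΔTFR5 against ΔTFR4. No filter gave 1 for FL against empty vector in batch 2 and 11 for ΔTFR5 against empty vector. DESeq2 gave 9, 20, 2 and 1 for FL against empty vector in batch 2, ΔTFR4 against FL, ΔTFR5 against FL and ΔTFR5 against ΔTFR4. Leaving out 1 library at a time gave 4 to 13 in FL against empty vector of batch 1, 0 to 11 for ΔTFR1 and 0 to 9 for ΔTFR2 against FL. In batch 2 it gave 0 to 43 for FL, 37 to 41 for ΔTFR4 and 1 to 16 for ΔTFR5 against empty vector, and 1 to 34 for ΔTFR4 and 0 to 3 for ΔTFR5 against FL. The cause of each change was not tested.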
